A study of Mus musculus with 6 samples.

Results

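The machinery that places, reads and removes methylation on lysine 9 of histone H3 (H3K9) was followed in mouse embryonic stem cells that had lost a pair of its reader proteins. It was taken as a list of 36 genes, covering H3K9 writers and erasers, partners of the HP1 proteins and factors of gene silencing. All 36 were found by symbol among the 24467 gene IDs of the count table, and all 36 were among the 14771 genes that passed the filter on low counts. RNA was sequenced in 6 libraries in 3 groups of 2: clone 1 and clone 2 of a double knockout (DKO) that removes Cbx5 and Cbx1, the genes of HP1 alpha and HP1 beta, and 1 control clone with floxed alleles of both genes, given as wild type in the genotype label. The 6 libraries came from cells in DMEM with knockout serum replacement and leukaemia inhibitory factor, under 3 µM of the GSK3 inhibitor CHIR99021 and 0.8 µM of the MEK inhibitor PD184352. As the control is 1 clone, the effect of genotype and the effect of clone cannot be told apart, and p-values measure only the spread between these libraries, which may be technical.

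Methylated H3K9 marks silent chromatin, and HP1 proteins bind it through a chromodomain while a second domain recruits other factors. In embryonic stem cells KRAB zinc finger proteins lead the corepressor TRIM28 (KAP1) and the methyltransferase SETDB1 to retrotransposons and imprinted regions. SUV39H1 and SUV39H2 keep the mark at repeats around centromeres, and the EHMT1 and EHMT2 pair (GLP and G9a) lays down its dimethylated form. The HUSH complex silences young transposable elements together with MORC2, and KDM3 and KDM4 demethylases remove the mark.

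The libraries held between 24628872 and 34641560 counted reads, and a member had between 104 and 39832 reads in a library. In the DKO libraries Cbx5 had 206 and 194 CPM (read counts scaled to a common library size) in clone 1 and 191 and 201 CPM in clone 2, against 813 and 809 CPM in the control. Cbx1 had 49.3 and 43.9 CPM in clone 1 and 44.9 and 44.5 CPM in clone 2, against 227 and 223 CPM in the control. Which exons were deleted is not stated in the labels, so where the remaining reads lie was not examined. The 10 embryonic stem cell markers summed to 4220 to 4450 CPM in DKO and 4050 to 4150 CPM in control libraries. Of these 10, 1 rose in DKO against control at an adjusted p below 0.05 in edgeR, where 5.06% of all tested genes rose. With the chromosome shifts taken out 0 of them rose. Markers of other cells summed to lower levels in DKO than in control libraries, and no marker was at 0 in all 6. Cells in a 2-cell-like state are rare in such cultures. Their 7 markers summed to 29.9 to 44.9 CPM in DKO and 102 to 104 CPM in control libraries. By the same test 5 of these 7 fell, where 3.62% of all tested genes fell. The 10 fibroblast and feeder markers summed to 6.41 to 8.48 CPM in DKO and 8.65 to 12.4 CPM in control libraries. Of the 4 tested, 1 was higher (Fbln2) and 1 lower (Acta2), where 5.06% of all tested genes rose and 3.62% fell. With the chromosome shifts taken out, 0 of these 4 were higher and 1 was lower, where 2.27% of all tested genes were higher and 3.00% lower. The 7 primitive endoderm markers summed to 4.99 to 6.54 CPM in DKO and 7.07 to 8.83 CPM in control libraries. Of the 6 tested, 0 were called, where 8.69% of all tested genes were. The part of these markers in the values below was not tested.

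Levels between genes were compared per length, as RPKM, which divides CPM by the gene width in kilobases taken from the deposited table. Trim28 stood highest in both genotypes, at 214 ± 5.71 RPKM in DKO (SD, n = 4) and 234 ± 8.96 RPKM in the control (SD, n = 2). Zfp57, which codes for a zinc finger protein that protects imprints, came next, at 113 ± 7.86 RPKM in DKO and 149 ± 13.1 RPKM in the control. Chd4, an ATPase of the NuRD complex, and Hells, a remodeller needed for DNA methylation of repeats, followed at 111 ± 3.36 and 106 ± 4.49 RPKM in DKO, against 104 ± 3.64 and 111 ± 4.18 RPKM in the control. The means of Zfp57, Chd4 and Hells in DKO lay close enough for their SDs to overlap. The median member was at 20.7 RPKM in DKO and 20.9 RPKM in the control, and Senp7, a SUMO protease that binds HP1 alpha, was lowest at 0.311 and 0.339 RPKM.

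Paralogous writers and erasers stood at different levels. Suv39h2 was at 12.7 ± 0.492 RPKM and Suv39h1 at 5.22 ± 0.452 RPKM in DKO, against 11.8 ± 0.725 and 5.21 ± 0.311 RPKM in the control. Setdb1 was at 34.4 ± 5.39 RPKM and Setdb2 at 6.502 ± 0.625 RPKM in DKO, against 30.8 ± 0.838 and 7.61 ± 0.5995 RPKM in the control. Among the erasers Kdm3a was highest, at 71.4 ± 3.60 RPKM in DKO and 49.5 ± 3.05 RPKM in the control, and Kdm4b lowest, at 3.71 ± 0.447 and 3.25 ± 0.122 RPKM.

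**Figure D1:**
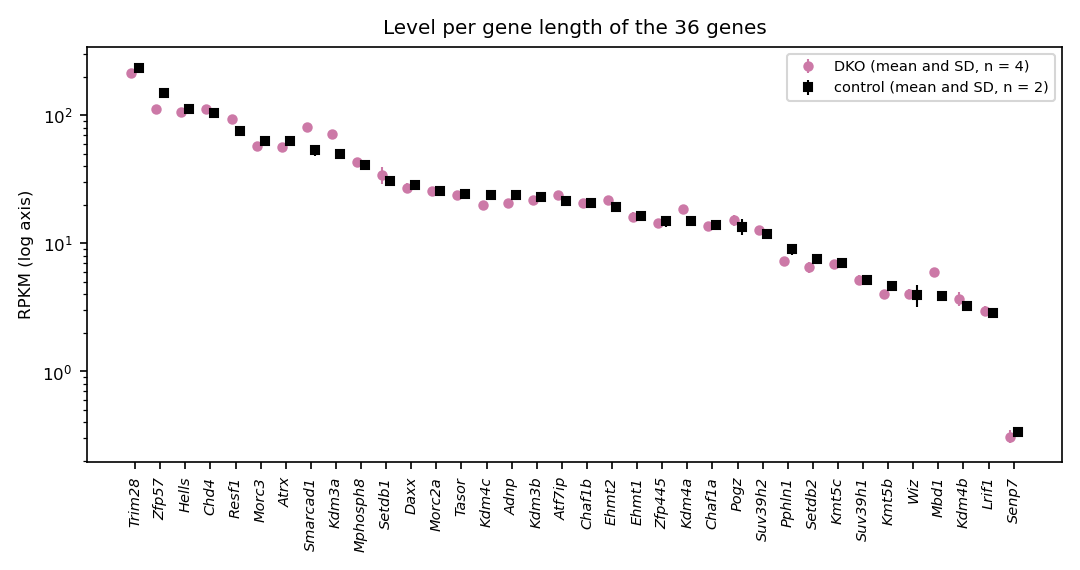
RPKM (log axis) of the 36 genes, ordered by the control mean, with DKO means (circles, SD, n = 4) left of control means (squares, SD, n = 2). Trim28 is highest and Senp7 lowest in both, and the means of DKO and control lie close together for most genes.

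Most of these genes differed little between DKO and control. In DKO against control 5 of 36 rose (Smarcad1, Kdm3a, Kdm4a, Resf1 and Mbd1), 2 fell (Kdm4c and Zfp57) and 29 did not pass, at an adjusted p below 0.05 in the quasi-likelihood F test of edgeR over all 14771 genes. Those 7 are 19.4% of the members, where 8.69% of all tested genes were called. The share that rose was 13.9%, where 5.06% of all tested genes rose, and the share that fell was 5.56%, where 3.62% of all tested genes fell. The log2 changes ran from -0.40 for Zfp57 to 0.61 for Mbd1, with a median of -0.01 where the median of all tested genes was 0. The same 7 genes were called in each clone against the control, in the same direction, and 7.99% of all tested genes were called in both clones in this way; the clones share the control libraries. In bulk RNA fewer cells with a transcript and less of it per cell cannot be told apart. For each of the 29 genes that did not pass, the 95% interval of the change lay inside a 1.5-fold change in either direction.

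The 4 DKO libraries all lay above both control libraries for 8 members and all below them for 9, where 16.9% of all tested genes did each. On chromosome 6 all 5 members lay above, where 66.4% of its tested genes did. Of the 7 called genes, 3 lie on chromosome 6 (Smarcad1, Kdm3a and Resf1), where the median tested gene was higher than in the control in both clones. Kdm4a and Kdm4c lie on chromosome 4, Zfp57 on chromosome 17 and Mbd1 on chromosome 18. Outside chromosomes 3 and 6, 2 of 28 members rose and 2 fell (7.14% each), where 2.32% of the tested genes there rose and 3.82% fell.

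**Figure D2:**
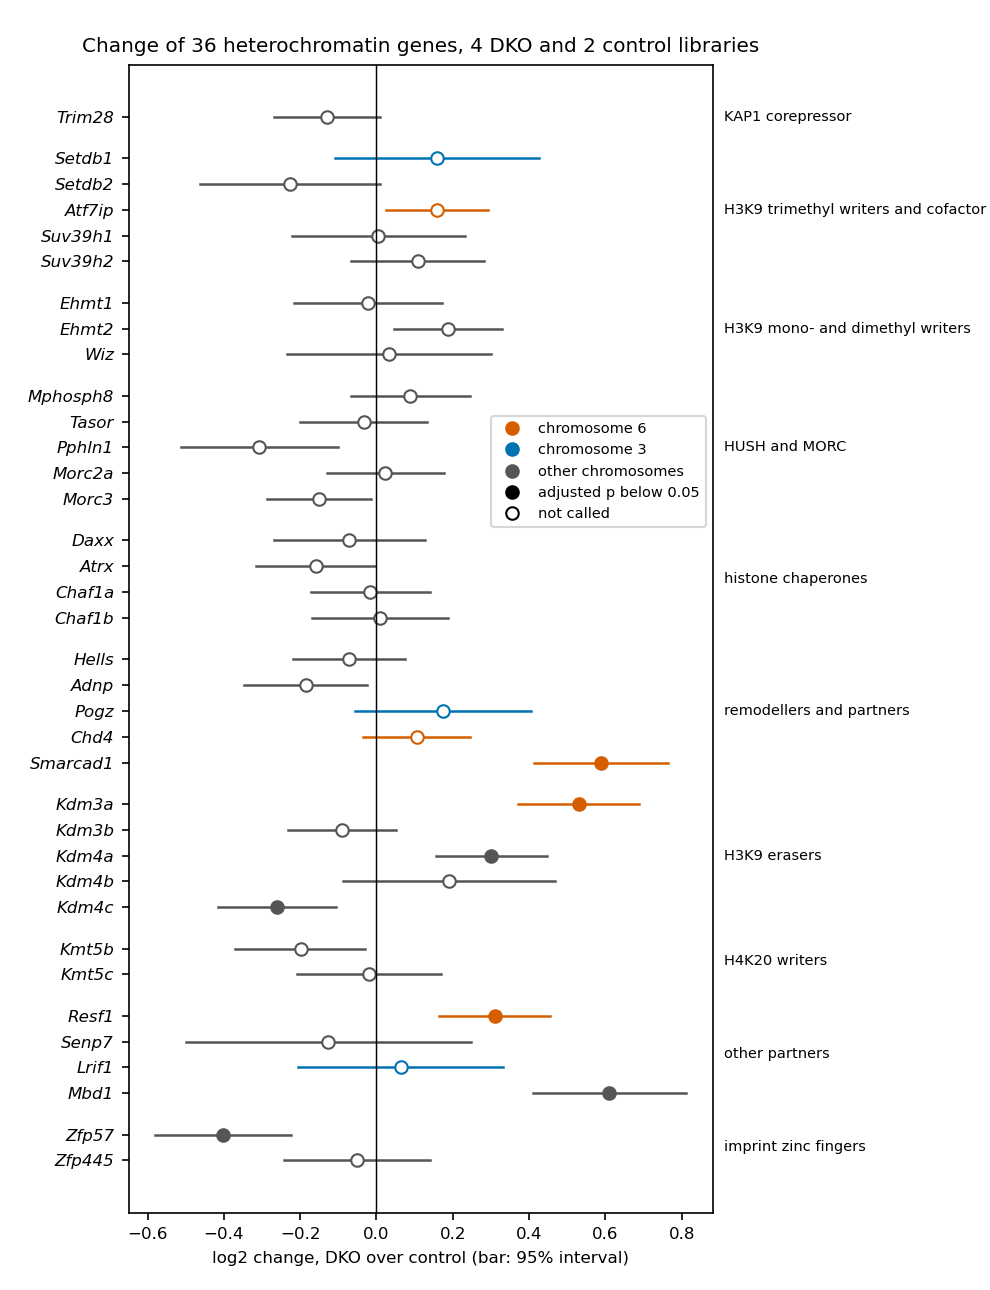
Log2 change of the 36 genes in DKO over control (points, with 95% intervals as bars), grouped by role and coloured by chromosome. Filled points passed at an adjusted p below 0.05: Smarcad1, Kdm3a, Kdm4a, Resf1 and Mbd1 lie right of 0, and Kdm4c and Zfp57 left of it.

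Among the writers of H3K9 trimethylation and their corepressor, no call was made in DKO against control. Trim28 had 887 and 863 CPM in clone 1 and 889 and 921 CPM in clone 2, against 999.9 and 947 CPM in the control. Its 4 DKO libraries all lay below both control libraries, but the log2 change of -0.13 (SE 0.0627) had an adjusted p of 0.246, with a 95% interval of -0.27 to 0.01. Of Setdb1, Setdb2, Suv39h1, Suv39h2 and Atf7ip, which stabilises SETDB1, edgeR, DESeq2 and limma-voom called 0 of 5, with 1 at unadjusted p below 0.05. In edgeR 14 of the 36 members and 3433 of all 14771 tested genes were below that level in this comparison. The changes of Suv39h1 and Suv39h2 were 0.01 (SE 0.102, interval -0.22 to 0.23) and 0.11 (SE 0.0788, interval -0.07 to 0.28). Atf7ip, on chromosome 6, had 228 and 226 CPM in clone 1 and 214 and 219 CPM in clone 2, against 199 CPM in each control library, a log2 change of 0.16 (adjusted p = 0.142).

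Setdb1 differed between the clones. It had 274 and 259 CPM in clone 1 and 198 and 211 CPM in clone 2, against 207 and 215 CPM in the control. Clone 1 lay above the other groups, and clone 2 overlapped the control. The change in DKO against control was 0.16 (SE 0.121, adjusted p = 0.479). Setdb1 rose in clone 1 by a log2 change of 0.34 (SE 0.0673, adjusted p = 0.00407), which was 0.07 (adjusted p = 0.538) once the median shift of every chromosome was taken out (chromosomes centred), while clone 2 against control gave -0.05 (SE 0.0675, adjusted p = 0.707). The difference, clone 2 against clone 1, was -0.38 (SE 0.0675, adjusted p = 0.00544). It was the 1 call among 36 members in that comparison, 2.78% of them, where 6.30% of all tested genes were called and 3.77% were lower. Without clone 2 replicate 1 its adjusted p was 0.0811. Setdb1 lies on chromosome 3 (GRCm38 chr3:95323525-95357202), where 36.9% of the tested genes rose in clone 1 and 16.7% were lower in clone 2 than in clone 1. With chromosomes centred, the difference was -0.21 (adjusted p = 0.112), and 2.77% of all tested genes were then lower. Setdb2, on chromosome 14, had 29.3 and 27.4 CPM in clone 1 and 23.9 and 24.6 CPM in clone 2, against 32.5 and 29.1 CPM in the control. It fell in clone 2 (log2 change -0.35, adjusted p = 0.029), as did 15.6% of the tested genes of its chromosome, but not past the threshold without control replicate 1 or either clone 2 library (adjusted p up to 0.178), nor with chromosomes centred (-0.22, adjusted p = 0.166).

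The writers of mono- and dimethylated H3K9 gave 0 of 3 calls in edgeR, DESeq2 and limma-voom. In edgeR, where 3433 of all 14771 tested genes had an unadjusted p below 0.05, 1 of the 3 did. That was Ehmt2 (G9a), with 122 and 116 CPM in clone 1 and 123 and 120 CPM in clone 2, against 103 and 108 CPM in the control. Its DKO libraries all lay above the control libraries, with a log2 change of 0.19 (SE 0.0640, adjusted p = 0.104). Ehmt1 (GLP) had a change of -0.02 (interval -0.22 to 0.17), and Wiz, a zinc finger subunit of the G9a complex, one of 0.03 (interval -0.23 to 0.30).

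The HUSH complex and its MORC partners gave 0 of 5 calls in edgeR and limma-voom. DESeq2 called 1, where it called 10.9% of all tested genes. At unadjusted p below 0.05 in edgeR were 2 of the 5, where 3433 of all 14771 tested genes were. Pphln1, which codes for the HUSH subunit periphilin, had 35.6 and 33.2 CPM in clone 1 and 31.4 and 31.7 CPM in clone 2, against 37.9 and 43.7 CPM in the control. All 4 DKO libraries lay below both control libraries, with a log2 change of -0.31 (SE 0.0932, adjusted p = 0.0713 in edgeR and 0.0488 in DESeq2). It fell in clone 2 against control (-0.37, adjusted p = 0.0183), but not past the threshold without control replicate 2 or either clone 2 library (adjusted p up to 0.142). The other HUSH subunits had changes of 0.09 for Mphosph8 (interval -0.07 to 0.24), which reads methylated H3K9, and -0.03 for Tasor (interval -0.20 to 0.13), the scaffold. Morc2a had a change of 0.02, and Morc3, an ATPase that silences transposable elements with DAXX, one of -0.15 (SE 0.0618, adjusted p = 0.171).

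The histone chaperones gave 0 of 4 calls in edgeR, DESeq2 and limma-voom. At unadjusted p below 0.05 in edgeR was 1 of the 4, where 3433 of all 14771 tested genes were. Daxx and Atrx, which deposit histone H3.3 in heterochromatin, had changes of -0.07 (SE 0.0888) and -0.16 (SE 0.0705, adjusted p = 0.207). Atrx had 979 and 999.3 CPM in clone 1 and 938 and 1038 CPM in clone 2, against 1160 and 1048 CPM in the control, so its groups came close without overlap. Chaf1a and Chaf1b, subunits of the replication-coupled chaperone CAF-1, had changes of -0.02 (interval -0.17 to 0.14) and 0.01 (interval -0.17 to 0.19). Chaf1a shares 52.5% of its annotated exon bases with Ubxn6 on the opposite strand, and the labels do not state which strand was counted, so its reads are uncertain.

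Of the 5 remodellers and their partners 1 rose, where 5.06% of all tested genes rose. Smarcad1, a remodeller that holds KAP1 at retrotransposons in mouse embryonic stem cells (GRCm38 chr6:65042591-65116061), had 655 and 601 CPM in clone 1 and 599 and 663 CPM in clone 2, against 447 and 390 CPM in the control. Each DKO library lay above both control libraries, a rise of 1.51-fold (log2 change 0.59, SE 0.0794, adjusted p = 0.00178). It was the only called member whose call held without each of the 6 libraries in turn (adjusted p up to 0.04). On its chromosome 49.1% of the tested genes rose, and with chromosomes centred its change was 0.13 (adjusted p = 0.416), so the call ended. Chd4 had 875 and 865 CPM in clone 1 and 919 and 913 CPM in clone 2, against 809 and 851 CPM in the control (log2 change 0.11, adjusted p = 0.36). Adnp, which joins CHD4 and HP1 in the ChAHP complex, had a change of -0.19 (SE 0.0726, adjusted p = 0.152). Its reads are uncertain, since 82.1% of its annotated exon bases are shared with Gm20716 on the same strand. Pogz, a zinc finger protein that binds HP1, had a change of 0.17 (interval -0.06 to 0.41), and Hells one of -0.07 (interval -0.22 to 0.08).

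Of the 5 erasers of H3K9 methylation 2 rose and 1 fell, where 5.06% of all tested genes rose and 3.62% fell. With chromosomes centred 1 of the 5, Kdm4a, passed. Kdm3a, which removes mono- and dimethyl groups (GRCm38 chr6:71588970-71632990), had 609.5 and 616 CPM in clone 1 and 560.1 and 563 CPM in clone 2, against 389 and 425 CPM in the control. The groups did not overlap, and the rise was 1.44-fold (log2 change 0.53, SE 0.0720, adjusted p = 0.00185, and 0.0513 without control replicate 1). Its paralogue Kdm3b, on chromosome 18, had 244 and 228 CPM in clone 1 and 234 and 219 CPM in clone 2, against 248 and 245 CPM in the control (log2 change -0.09, interval -0.23 to 0.05).

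The KDM4 demethylases act on the trimethylated form, and a pair of them on chromosome 4 changed in opposite directions. Kdm4a (GRCm38 chr4:118136957-118180090) had 111 and 106 CPM in clone 1 and 104 CPM in each library of clone 2, against 85.2 and 87.5 CPM in the control. It rose 1.23-fold (log2 change 0.30, SE 0.0657, adjusted p = 0.0187), but did not pass without control replicate 1 (0.175) or control replicate 2 (0.125). Kdm4c (GRCm38 chr4:74242497-74405864) had 113 and 118 CPM in clone 1 and 111 and 123 CPM in clone 2, against 145 and 134 CPM in the control. It fell to 83.5% of the control (log2 change -0.26, SE 0.0700, adjusted p = 0.0448), and this call ended without any 1 of 5 libraries, clone 2 replicate 2 being the exception (adjusted p up to 0.345), and with the replicate number as a block (0.0819). Neither gene had overlapping groups, and with chromosomes centred the changes were again 0.30 (adjusted p = 0.0233) and -0.26 (adjusted p = 0.0564), so Kdm4c no longer passed. Kdm4b had a change of 0.19 (interval -0.09 to 0.47).

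The H4K20 methyltransferases, which act after HP1 at pericentric repeats, gave 0 of 2 calls in edgeR, DESeq2 and limma-voom. At unadjusted p below 0.05 in edgeR was 1 of the 2, where 3433 of all 14771 tested genes were. Kmt5b had 59.6 and 57.8 CPM in clone 1 and 56.5 and 54.7 CPM in clone 2, against 68.8 and 62.5 CPM in the control (log2 change -0.20, SE 0.0769, adjusted p = 0.148). Kmt5c had a change of -0.02 (interval -0.21 to 0.17).

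Of the 4 other partners 2 rose, where 5.06% of all tested genes rose. Mbd1, which binds methylated CpG and works with SETDB1 (GRCm38 chr18:74267605-74282737), had 41.4 and 40.02 CPM in clone 1 and 36.2 and 39.9 CPM in clone 2, against 24.8 and 26.8 CPM in the control. Its fitted change was the highest of the 36 members, 1.53-fold with no overlap (log2 change 0.61, SE 0.0908, adjusted p = 0.0028, and 0.0622 without control replicate 1). With chromosomes centred it was 0.54 (adjusted p = 0.00823). Resf1, a factor of retroelement silencing (GRCm38 chr6:149309409-149335663), had 648 and 640.2 CPM in clone 1 and 591 and 643 CPM in clone 2, against 519 and 499 CPM in the control. It rose 1.24-fold (log2 change 0.31, SE 0.0658, adjusted p = 0.0162), and not past the threshold without control replicate 1 (0.109) or 2 (0.162). On chromosome 6, where Resf1 lies, 49.1% of the tested genes rose. With chromosomes centred the change of Resf1 was -0.15 (adjusted p = 0.255), so its call ended. Senp7 had 4.52 and 3.74 CPM in clone 1 and 4.18 and 4.91 CPM in clone 2, against 4.60 and 4.86 CPM in the control, with a wide interval of -0.50 to 0.25. Lrif1, an HP1-binding protein of the inactive X chromosome, had a change of 0.06 (interval -0.21 to 0.33).

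Of the pair of imprint-protecting zinc finger genes 1 fell, where 3.62% of all tested genes fell, and the difference between them was not tested. Zfp57 (GRCm38 chr17:37001163-37010729) had 389 and 439 CPM in clone 1 and 459 and 423 CPM in clone 2, against 599.9 and 529.6 CPM in the control. The DKO libraries all lay below the control libraries, at 75.7% of the control mean (log2 change -0.40, SE 0.0800, adjusted p = 0.0116). The call was lost without control replicate 1 (0.183), the higher of the control libraries, and held with chromosomes centred (-0.39, adjusted p = 0.019). Zfp445, which acts beside ZFP57 in mouse, had 119 and 105 CPM in clone 1 and 101 and 104 CPM in clone 2, against 119 and 103 CPM in the control, with overlapping groups and a change of -0.05 (interval -0.24 to 0.14).

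**Figure D3:**
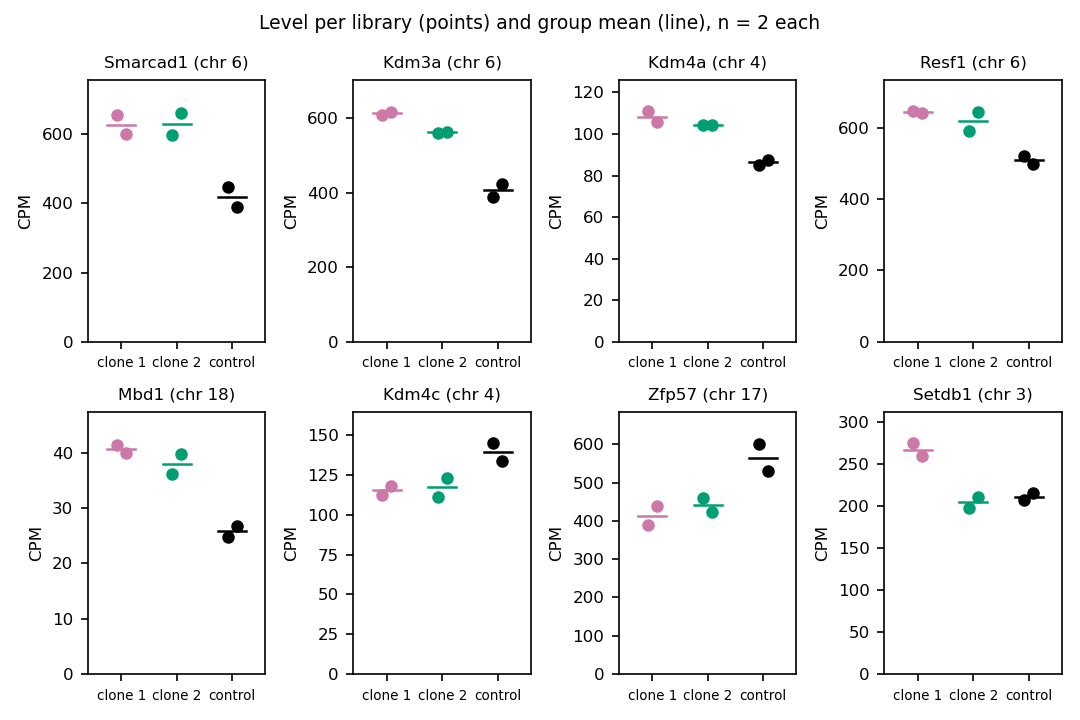
CPM per library (points) and group mean (line) of the 7 called genes and Setdb1 in clone 1, clone 2 and the control, n = 2 each, each axis from 0. Smarcad1, Kdm3a, Kdm4a, Resf1 and Mbd1 lie above the control in both clones, Kdm4c and Zfp57 below it, and Setdb1 above it in clone 1 only.

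Members on chromosomes 3 and 6 were read against the shift of their chromosome. The median log2 change of the 709 tested genes of chromosome 6 was 0.44 in clone 1 and 0.51 in clone 2 against control, and that of the 701 genes of chromosome 3 was 0.28 in clone 1 and 0.08 in clone 2. On chromosome 6, 49.1% of the tested genes rose in DKO against control, and so did 3 of the 5 members there. The same 3 rose in each clone, where 52.6% of the genes of chromosome 6 rose in clone 1 and 57.7% in clone 2. The change of Smarcad1 was 0.59 in each clone, above the chromosome median, and that of Kdm3a was 0.59 in clone 1 and 0.47 in clone 2. Resf1 had 0.34 in clone 1 and 0.28 in clone 2, Atf7ip 0.20 and 0.12, and Chd4 0.07 and 0.14, all below the median of their chromosome.

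With chromosomes centred, the change of Kdm3a in DKO against control was 0.07 (adjusted p = 0.691), so like Smarcad1 it did not pass. The change of Resf1, 0.31 as fitted, became -0.15 (adjusted p = 0.255). Chd4 turned to -0.36 (adjusted p = 0.00727) and Atf7ip to -0.30 (0.028), so both passed as lower relative to their chromosome, although both lay above the control in CPM in each DKO library. The centred counts over the 36 members were 2 higher (Kdm4a and Mbd1) and 3 lower (Atf7ip, Chd4 and Zfp57), where 2.27% of all tested genes were higher and 3.00% lower in that setting. On chromosome 3, Setdb1 had 0.34 and Pogz 0.28 in clone 1, close to the chromosome median, and Lrif1 had 0.05; in clone 2 they had -0.05, 0.06 and 0.08.

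**Figure D4:**
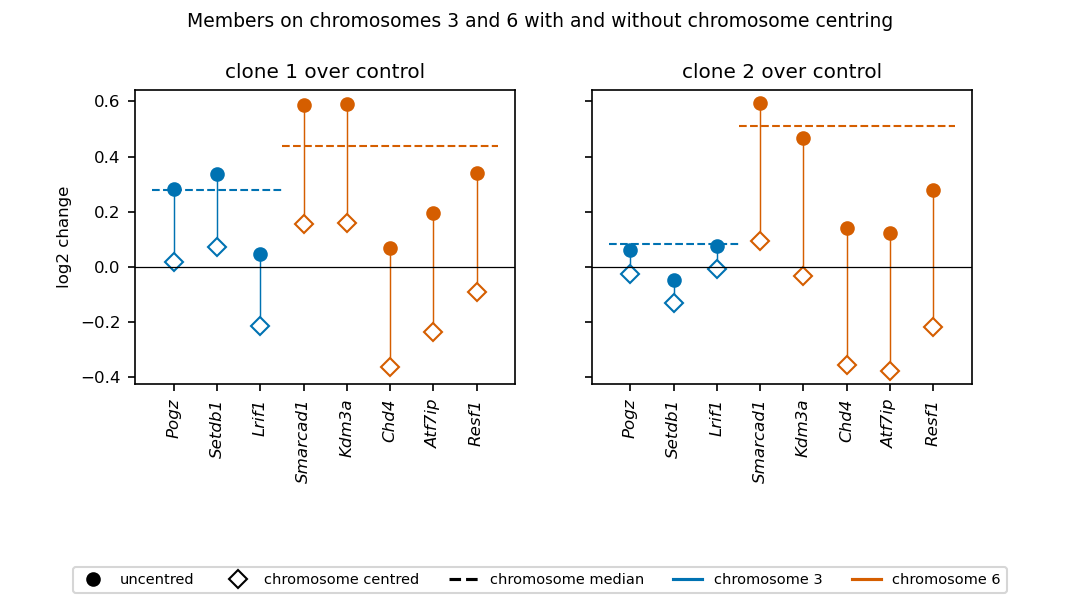
Log2 change over control of the 8 members on chromosomes 3 and 6 in clone 1 (left) and clone 2 (right), as fitted (filled circles) and with chromosomes centred (open diamonds), with dashed lines at the median of the chromosome's tested genes. Smarcad1 and Kdm3a in clone 1 lie above the dashed line of chromosome 6, and Chd4, Atf7ip and Resf1 below it in both clones.

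Per clone, 6 members rose and 2 fell in clone 1 against control, 22.2% of them in all, where 15.3% of all tested genes were called, 8.79% rose and 6.47% fell. In clone 2 against control 5 rose and 4 fell, where 15.0% were called, 7.89% rose and 7.08% fell. Beyond the 7 genes called in both clones, clone 1 had Setdb1 higher, and clone 2 had Setdb2 and Pphln1 lower. Atf7ip on chromosome 6 and Pogz on chromosome 3 had adjusted p = 0.0517 and 0.0506 in clone 1 in edgeR. They passed as higher in DESeq2 (0.0454 and 0.0394) and limma-voom (0.0467 and 0.0453), where 13.5 and 15.2% of all tested genes were called. With chromosomes centred in edgeR, Pogz had 0.02 in clone 1 (adjusted p = 0.93), and Atf7ip passed as lower (-0.24, adjusted p = 0.0305). Of the 3 genes that edgeR called in 1 clone, the difference between the clones passed for Setdb1, and for Setdb2 and Pphln1 it gave adjusted p = 0.204 and 0.511.

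Promoter windows of 3 called genes are shown: Smarcad1, whose call held without any 1 library but not with chromosomes centred, and Kdm4c and Zfp57, the members that fell. Each is the 250 bases before the most upstream start in the RefSeq table (GRCm38.p6), 5′ to 3′ on the strand of the gene, with CpG dinucleotides, the target of DNA methylation, in capitals. The window of Smarcad1 is chr6:65042341-65042590 (plus strand), of Kdm4c chr4:74242247-74242496 (plus strand) and of Zfp57 chr17:37000913-37001162 (plus strand).
Smarcad1: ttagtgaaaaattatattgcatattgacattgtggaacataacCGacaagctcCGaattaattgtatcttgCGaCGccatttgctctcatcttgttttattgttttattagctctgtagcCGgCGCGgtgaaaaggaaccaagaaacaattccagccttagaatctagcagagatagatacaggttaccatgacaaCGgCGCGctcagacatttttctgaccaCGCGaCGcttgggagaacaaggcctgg
Kdm4c: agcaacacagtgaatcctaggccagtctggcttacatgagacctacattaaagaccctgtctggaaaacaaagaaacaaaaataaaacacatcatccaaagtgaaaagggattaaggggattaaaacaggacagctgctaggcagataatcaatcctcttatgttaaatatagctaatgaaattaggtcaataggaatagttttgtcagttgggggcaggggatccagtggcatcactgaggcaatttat
Zfp57: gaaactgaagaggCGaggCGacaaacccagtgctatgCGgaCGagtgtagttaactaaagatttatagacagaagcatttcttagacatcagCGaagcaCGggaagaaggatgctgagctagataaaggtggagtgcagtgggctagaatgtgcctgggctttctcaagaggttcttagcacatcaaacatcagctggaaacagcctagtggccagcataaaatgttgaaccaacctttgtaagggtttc

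The Smarcad1 window holds 13 CpG, that of Zfp57 6 and that of Kdm4c 0, with a GC content of 43.2, 46.4 and 39.6%. The window of Kdm4a, which rose, holds 12 CpG and is not shown. The table has other windows further into these genes, 1 for Smarcad1 with 25 CpG, 1 for Kdm4c with 19 and 2 for Zfp57 with 3 and 7, and the counts do not say which start was used. Windows were found for 33 of the 36 members, 53 in all, with a median of 17 CpG where the 14642 windows of tested genes had a median of 15. The ratio of observed to expected CpG was above 0.6 in 71.7% of the members' windows and in 61.4% of those of tested genes. Of 5 motifs searched on both strands, the GC box GGGCGG was in 58.5% of the members' windows and 55.6% of those of tested genes. CCAAT was in 39.6 and 35.7%, the ETS motif CCGGAAG in 18.9 and 12.6%, TGCCGC, which ZFP57 binds when methylated, in 9.43 and 13.6%, and TATAAA in 5.66 and 6.90%. In the Zfp57 window shown, the letters of TATAAA lie on the strand opposite to the gene. The Kdm4a window, not shown, holds 1 CCAAT, whose strand was not recorded.

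Outside the 36 members, Chd3 and Tasor2 had the highest changes among the other pathway genes. Cbx3, which codes for the remaining HP1 protein, HP1 gamma, and lies on chromosome 6, had 456 and 453 CPM in clone 1 and 490.5 and 450 CPM in clone 2, against 321 and 344 CPM in the control. It rose by a log2 change of 0.48 (adjusted p = 0.0021), which was 0.01 with chromosomes centred (adjusted p = 0.948). The adjusted p without control replicate 1 was 0.0582.

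Of 19 tested genes among other H3K9 enzymes and readers 3 rose and 2 fell, 26.3% in all where 8.69% of all tested genes were called, and 1 rose and 1 fell with chromosomes centred. Their median change was -0.01. Tasor2, a paralogue of the HUSH scaffold gene on chromosome 13, had 96.4 and 101 CPM in clone 1 and 95.6 and 96.8 CPM in clone 2, against 53.5 and 52.1 CPM in the control. It rose 1.85-fold (log2 change 0.88, SE 0.0683, adjusted p = 2.7e-04, and up to 0.0165 without any 1 library), where Tasor itself had a change of -0.03. Morc4 on the X chromosome had 4.92 and 6.32 CPM in clone 1 and 4.66 and 6.19 CPM in clone 2, against 8.65 and 9.48 CPM in the control, and fell by 0.71 on the log2 scale (adjusted p = 0.0227, with 0.128 when control replicate 1 was left out and 0.203 when control replicate 2 was). Cdyl2, a chromodomain reader, fell by 0.35 (adjusted p = 0.0323), and lost the call without any 1 of 5 libraries (adjusted p up to 0.328). Kdm7a, a demethylase gene on chromosome 6, rose by 0.32 (adjusted p = 0.0458), lost the call without each of the 6 libraries in turn and turned to -0.15 with chromosomes centred. Prdm16, named after its values were seen, rose by 0.66 (adjusted p = 0.0478, and 0.0594 with chromosomes centred). Against control it passed in clone 1 (0.85, adjusted p = 0.00185) and not in clone 2 (0.44, adjusted p = 0.0711).

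Of 12 other chaperones of histone H3 and their partners 1 passed, as higher (8.33%, close to the 8.69% of all tested genes), and the median was 0.03. Ubn2, a subunit of the HIRA complex on chromosome 6, rose by 0.48 (adjusted p = 0.00327, and 0.0669 without control replicate 2), which was 0.01 with chromosomes centred. Of 28 genes of the SUMO pathway and of KAP1 and NuRD partners 2 passed, both as higher (7.14%, near the same 8.69%), and the median was 0.07. Chd3, an ATPase of NuRD and paralogue of Chd4, had 53.8 and 53.6 CPM in clone 1 and 42.8 and 44.7 CPM in clone 2, against 16.9 and 17.8 CPM in the control. Each DKO library lay far above the control libraries, a rise of 2.81-fold (log2 change 1.49, SE 0.121, adjusted p = 3.2e-04, and up to 0.0303 without any 1 library), which was 1.54 with chromosomes centred. Hdac3, a histone deacetylase, rose by 0.28 (adjusted p = 0.0328), a call lost without each of the 6 libraries in turn and with chromosomes centred (0.109). Sumo2 and Mta1 had changes of -0.24 (adjusted p = 0.0533 in edgeR and 0.036 in DESeq2) and -0.40 (adjusted p = 0.0635 in edgeR and 0.0183 in DESeq2). Mta1 fell in clone 2 against control by 0.58 (adjusted p = 2.6e-04, and up to 0.00563 without any 1 library), and had -0.24 in clone 1 (adjusted p = 0.06). Dnajc9, H3f3b and Ubn1 had 0.18, -0.13 and 0.15. With chromosomes centred Dnajc9 passed as higher (0.27, adjusted p = 0.0378). As fitted it passed as higher in clone 1 against control (0.23, adjusted p = 0.0409, and 0.0527 with the replicate block). That clone 1 call was lost without each of the 6 libraries in turn.

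**Figure D5:**
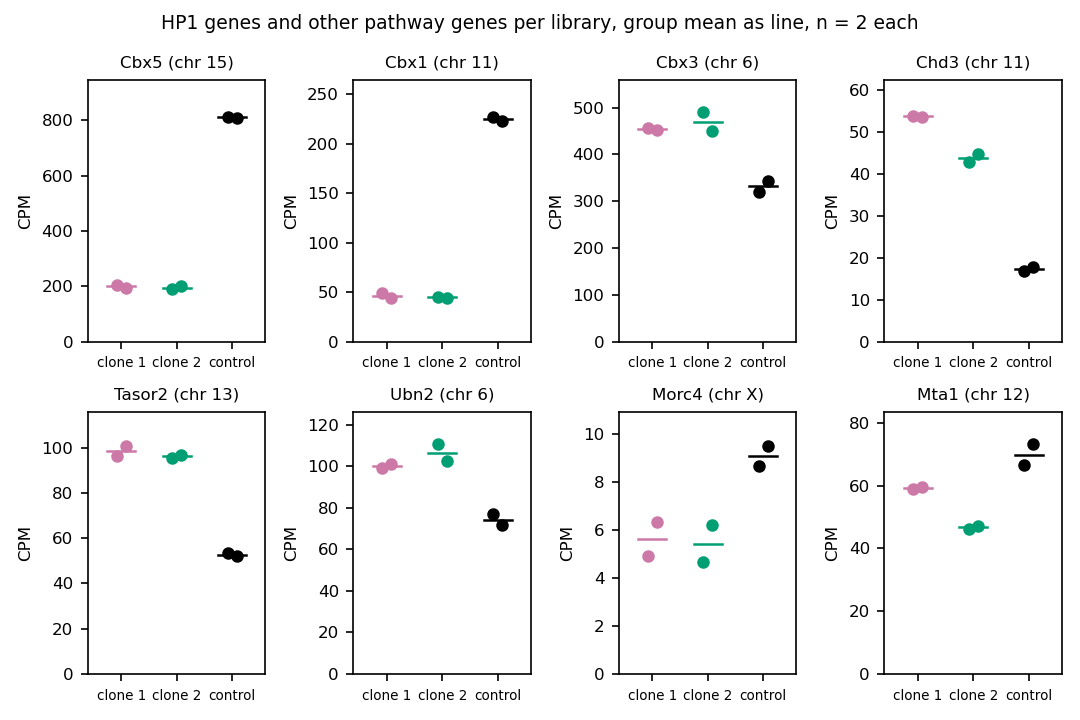
CPM per library (points) and group mean (line) in clone 1, clone 2 and the control, n = 2 each, for the HP1 genes and 5 other pathway genes, each axis from 0. Cbx5 and Cbx1 lie far below the control in both clones, and Cbx3, Chd3, Tasor2 and Ubn2 above it.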

How the data were processed

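Per the submitters' processing notes, STAR 2.5.0a was the aligner and mm10 (GRCm38) the genome. The authors deposited 1 table of unnormalised whole-number counts, by Entrez ID, together with the width of each gene. No source used here names the counting tool, annotation or strand. Per the labels' protocols, libraries were made with the ScriptSeq v2 kit from DNase-treated RNA. Of 24467 gene IDs, 24437 were matched to RefSeq names and positions (GRCm38.p6), and the 30 others took 0.389 to 1.62% of a library's reads. The members and lists were chosen with earlier results of these data known.

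The tests used edgeR 4.0.16 (R 4.3.3): filterByExpr (14771 genes), TMM (factors 0.992 to 1.01) and the two-sided quasi-likelihood F test, with Benjamini and Hochberg adjustment over all 14771 genes. DKO against control used genotype as the only term (4 residual degrees of freedom), and clone contrasts used 3 groups (3 degrees of freedom). Standard errors and 95% intervals came from the F statistic. CPM were scaled by TMM, and RPKM used the deposited width. Genes named are the 36 members, the HP1 genes and up to 4 genes with the smallest adjusted p per pathway list, unless stated. The alternatives were RLE and library-size scaling, 2 filters, DESeq2 1.42.0, limma-voom (limma 3.58.1), a replicate block, leaving out each library, counts summed per clone, and centring or removing chromosomes. Replicates of a group differed by 11.5 to 41.6 in chi-square per gene, more than sampling noise gives. The fits were tested on simulated data. Protein sequences were not used here.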

Additional observations from a re-analysis of the deposited data

Results flagged for a closer look

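Setdb1 differed between the clones against their shared control, by -0.38 on the log2 scale for clone 2 against clone 1 (adjusted p = 0.00544 in edgeR), with 198 and 211 CPM in clone 2 and 274 and 259 CPM in clone 1. With chromosomes centred this difference was -0.21 (adjusted p = 0.112). Lbr, from the list of other H3K9 enzymes and readers, was named after its values were seen. Lbr had 159 and 169 CPM in clone 1 and 209 and 201 CPM in clone 2, against 220 and 219 CPM in the control. It was higher in clone 2 than in clone 1 by 0.32 (adjusted p = 0.013, and 0.0168 with chromosomes centred). Against control it fell in clone 1 (-0.42, adjusted p = 7.8e-04), and clone 2 gave -0.10 (adjusted p = 0.342). Mta1, a NuRD subunit, also differed, by -0.35 (adjusted p = 0.0224), with 46.4 and 47.1 CPM in clone 2 and 59.1 and 59.7 CPM in clone 1, against 66.6 and 73.2 CPM in the control. Its adjusted p reached 0.141 when 1 library was left out.

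Among the 4 DKO libraries, 1 library stood apart from the other 3 by Dixon's criterion for 3 genes, a pattern that chance gives in about 1 of 20 groups of values, and 51 genes were examined. These were Adnp, with 118 CPM in clone 1 replicate 1, Resf1, with 591 CPM in clone 2 replicate 1, and Cbx3, with 490.5 CPM in clone 2 replicate 1.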

How the results depend on the processing

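In DKO against control 7 members were called, and between 6 and 8 under RLE or library-size scaling, other filters, DESeq2, limma-voom and the replicate block. The share of all tested genes called in those alternatives ran from 6.28% (replicate block) to 10.9% (DESeq2). Centring chromosomes gave 5, where 5.27% of all tested genes were called. Without chromosomes 3, 6 and Y, 3 of 28 were called (10.7%, where 4.91% of all genes tested in that fit were), and in clone 1 and clone 2 against control 3 and 5 of 28 (10.7 and 17.9%, where 1340 and 1449 of all 13351 genes were), against 8 and 9 of 36 with all chromosomes. When the libraries of each clone were summed, 3 samples remained, and the control had only 1. No member kept its call in that fit, in which hardly any gene passed. The log2 changes there were 0.59 for Smarcad1, 0.54 for Kdm3a, 0.31 for Kdm4a, 0.31 for Resf1 and 0.62 for Mbd1. Those of Kdm4c and Zfp57 were -0.26 and -0.40. Leaving out 1 library gave 1 to 7 calls in DKO against control, with 1 without control replicate 1 and 4 without control replicate 2, fits in which 1.62 and 2.06% of all tested genes were called. The calls in each clone against control also changed when 1 library was left out. Each such fit left 1 library in a group, so counts of calls in the clone contrasts are not given for them. Between the clones 0 members were called with chromosomes centred or without chromosomes 3, 6 and Y. Of all tested genes, 4.99 and 5.26% were called in those fits. The causes were not tested. Centring turned the sign of 7 of 36 members in DKO against control, called or not. Among the named genes called with or without centring it turned 14 log2 changes over the comparisons, 4 of them in DKO against control: Atf7ip to -0.30, Chd4 to -0.36, Resf1 to -0.15 and Kdm7a to -0.15. In clone 1 the centred values were -0.236, -0.364, -0.092 and -0.138 for these genes and -0.003 for Ubn2, and in clone 2 they were -0.376, -0.356, -0.219 and -0.161, and -0.032 for Kdm3a. Replicate differences were nearly uncorrelated between the groups (-0.083 to 0.028 across genes). These correlations cannot tell whether same-numbered libraries were handled together. The replicate block gave 6 calls in DKO against control, 8 in clone 1, 9 in clone 2 and 1 between the clones. In these fits 6.28, 15.1, 14.5 and 6.02% of all tested genes were called. Each member had 104 reads or more in each library, and each clone has 2 libraries.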
